A study of Mus musculus with 6 samples.

Results

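The Hox genes encode homeodomain transcription factors that sit in 4 clusters, HoxA to HoxD, each on its own chromosome. This account covers 38 Hox genes of the 27179 genes listed in a table of whole-transcriptome RNA from mouse nephron progenitors. They were taken by name, all those in the clusters that are reported here, with 10 genes in HoxA, 10 in HoxB, 9 in HoxC and 9 in HoxD; no threshold on a measured value was used. Progenitors were sorted from E16.5 (embryonic) kidneys by green fluorescence under control of Six2. The 3 control pools carried the Six2TGC transgene, which also drives Cre recombinase in these cells, and the 3 mutant pools, Six2TGC;miR-17~92fl/fl, also had a floxed miR-17~92 locus, a cluster of microRNA genes that Cre removes. Each pool came from 4 embryos, and the labels give neither strain nor any floxed copy in controls, so deletion and genetic background cannot be told apart.

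In a Hox cluster the genes lie in the order in which they are used along the head-to-tail axis, and genes at the same place in different clusters are paralogs that carry the same number. Low numbers act towards the head and high numbers towards the tail. In the kidney the paralogs of group 11 are needed together for the metanephric mesenchyme, where they work with Eya1 and Pax2 to switch on Six2 and Gdnf, the signal for ureteric bud growth. Group 10 genes are known from the developing stroma and limb, and group 13 genes from the cloaca and genital tubercle.

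MicroRNAs are described here because the deleted cluster makes microRNAs and the Hox clusters hold microRNAs of their own. The mature sequences are shown so that their seeds (bases 2 to 8, in capitals) can be compared, first those of the deleted cluster on chromosome 14 and then those encoded inside Hox clusters, all from RefSeq (GRCm38.p6).
miR-17-5p: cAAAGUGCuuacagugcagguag
miR-20a-5p: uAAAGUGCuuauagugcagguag
miR-18a-5p: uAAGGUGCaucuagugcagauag
miR-19a-3p: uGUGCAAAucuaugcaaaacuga
miR-19b-3p: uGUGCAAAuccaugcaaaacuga
miR-92a-3p: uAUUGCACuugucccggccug
miR-10a-5p: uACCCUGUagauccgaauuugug
miR-10b-5p: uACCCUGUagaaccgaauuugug
miR-196a-5p: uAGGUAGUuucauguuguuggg
miR-196b-5p: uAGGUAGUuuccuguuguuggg
The 6 microRNAs of the deleted cluster carry 4 seeds, since miR-17 and miR-20a share one and miR-19a and miR-19b share another. The Hox microRNAs shown carry 2 seeds, 1 for miR-10a (HoxB) and miR-10b (HoxD) and 1 for miR-196a (HoxB and HoxC) and miR-196b (HoxA).

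Exact 7-base matches to bases 2 to 8 were sought on the transcribed strand, taking for every gene its longest 3' UTR in the annotation. The matching letters are GCACTTT for miR-17 and miR-20a, GCACCTT for miR-18a, TTTGCAC for miR-19, GTGCAAT for miR-92a, ACAGGGT for miR-10 and ACTACCT for miR-196. All 38 Hox genes had an annotated 3' UTR, with a median length of 963 bases against 1410.5 for the 11716 genes with a 3' UTR that were tested for expression. A match to any of the 4 deleted seeds stood in 8 of the 38 (21.1%), against 36.3% of those 11716 genes. These 8 matches were all 7mers, and 0 had the A after the match that makes an 8mer. By seed, miR-19 matched in 4 genes (Hoxa5, Hoxa9, Hoxb1 and Hoxc13), miR-92a in 3 (Hoxb8, Hoxc11 and Hoxd8), miR-17 and miR-20a in Hoxb13 and miR-18a in 0. Per kb of 3' UTR the Hox genes had 0.108 matches to miR-19, against 0.0917 in the 11716 genes, and 0.0809 to miR-92a, against 0.0490. For miR-17 and miR-20a the rates were 0.0270 against 0.0982, and for miR-18a 0 against 0.0628. A match says only that these letters stand in the window.

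The matches in Hox genes with measurable RNA are shown with their flanks, the match in capitals.
Hoxa5, miR-19, chr6:52201972-52201978 (minus strand): taggacccTTTGCACgaactctg
Hoxa9, miR-19, chr6:52223403-52223409 (minus strand): atattgttTTTGCACcagaggag
Hoxb8, miR-92a, chr11:96284819-96284825 (plus strand): gcctccttGTGCAATggtctgtt
Hoxd8, miR-92a, chr2:74707445-74707451 (plus strand): gctgaagaGTGCAATgtattgtc
Of these 4 genes, Hoxa5 had a log2 fold change (mutant minus control) above 0 and the other 3 had one below 0, with values given under each cluster.

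Matches to miR-196, the microRNA encoded within the clusters, were more frequent in the Hox genes. They stood in 8 of 38 genes (21.1%) against 7.95% of the 11716, at 0.323 matches per kb of 3' UTR against 0.0475. Of 12 matches 8 were 8mers, and Hoxa7 alone held 4. The sequences below show matches from HoxA, HoxB and HoxC, the clusters that had any, among them a pair of paralogs with like flanks.
Hoxa7, chr6:52215364-52215370 (minus strand): actcccaaACTACCTatgggccc
Hoxb7, chr11:96289798-96289804 (plus strand): aaaaatatACTACCTatgggaaa
Hoxc8, chr15:102993747-102993753 (plus strand): tttaacatACTACCTaaagggaa
Hoxa5, chr6:52202119-52202125 (minus strand): ttattcaaACTACCTatattcct
Hoxa7 and Hoxb7 shared a run of 12 letters there, which includes the match itself. The other Hoxa7 matches shared runs of 9 or 10 letters with Hoxb7. Matches to miR-10 stood in Hoxa3, Hoxb3 and Hoxd1 (7.89% of Hox genes, 15.2% of the 11716), all 3 as 8mers. Per kb of 3' UTR the rates were 0.0809 and 0.0985. The sites of the paralogs Hoxa3 and Hoxb3 shared 13 letters, the match included.
Hoxa3, miR-10, chr6:52169654-52169660 (minus strand): gataagaaACAGGGTatatgaac
Hoxb3, miR-10, chr11:96347302-96347308 (plus strand): acgtgaaaACAGGGTatatttga

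The values used below are RPKM, reads per kilobase of gene length, scaled to library depth, which can be set side by side between genes. Depth, worked out from the table, lay between 27602025 and 36134381 reads per library. The targeted locus was checked first. Reads on Mir17 numbered 31, 26 and 16 in the controls, replicates 1 to 3, against 2, 0 and 0 in the mutants, whereas Mir17hg, the host transcript, went from 44.0 ± 9.71 RPKM (SD, n = 3) to 212 ± 41.1 (SD, n = 3) in mutants. The progenitor markers Six2 and Eya1 were present in every library, at 57.0 to 104 and 213 to 315 RPKM. In bulk RNA, fewer cells of a type and less RNA per cell cannot be told apart. The summed RPKM of 10 progenitor markers was 702 to 755 in controls and 526 to 642 in mutants, that of 10 stromal markers 64.4 to 170 and 123 to 207, that of 10 markers of differentiating nephron epithelium 69.1 to 71.6 and 75.5 to 101, and that of 6 macrophage and leukocyte markers 4.16 to 7.49 and 8.95 to 10.3. Ureteric bud markers summed to 1.22 to 4.37 RPKM in controls and 1.80 to 6.92 in mutants, with Wnt9b, Krt8, Aqp2 and Upk3a at 0 in some library, and endothelial ones to 2.57 to 4.85 and 4.06 to 4.84. C1qb and Nphs1 were also at 0 in some library. Abundant genes such as Eya1 weigh most in such sums. In the genotype comparison described below, Meox1 passed as lower and Tmem100 as higher in mutants among the 10 progenitor markers. Of the 8 tested epithelial markers Cdh6 and Slc12a1 passed as higher. The part of these differences in the Hox values was not tested.

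Hox RNA in these progenitors came from most of the length of each cluster. The minimum for testing, 0.5 RPKM averaged over all 6 libraries, was reached by 30 of 38 genes, 20 had at least 10 RPKM and 4 had at least 50 RPKM. The 8 genes under the minimum were Hoxb1 and Hoxd1 of group 1, Hoxc11, Hoxc12, and the whole of group 13 (Hoxa13, Hoxb13, Hoxc13 and Hoxd13). Hoxb13 was listed at 0 in every library, and Hoxc13 had 1 read in 1 library. Just under the minimum lay Hoxd13, with a mean of 0.406 RPKM and 14 to 58 reads per library, and the tested gene nearest above it was Hoxa7, with a mean of 1.99 RPKM and 84 to 155 reads.

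**Figure D1:**
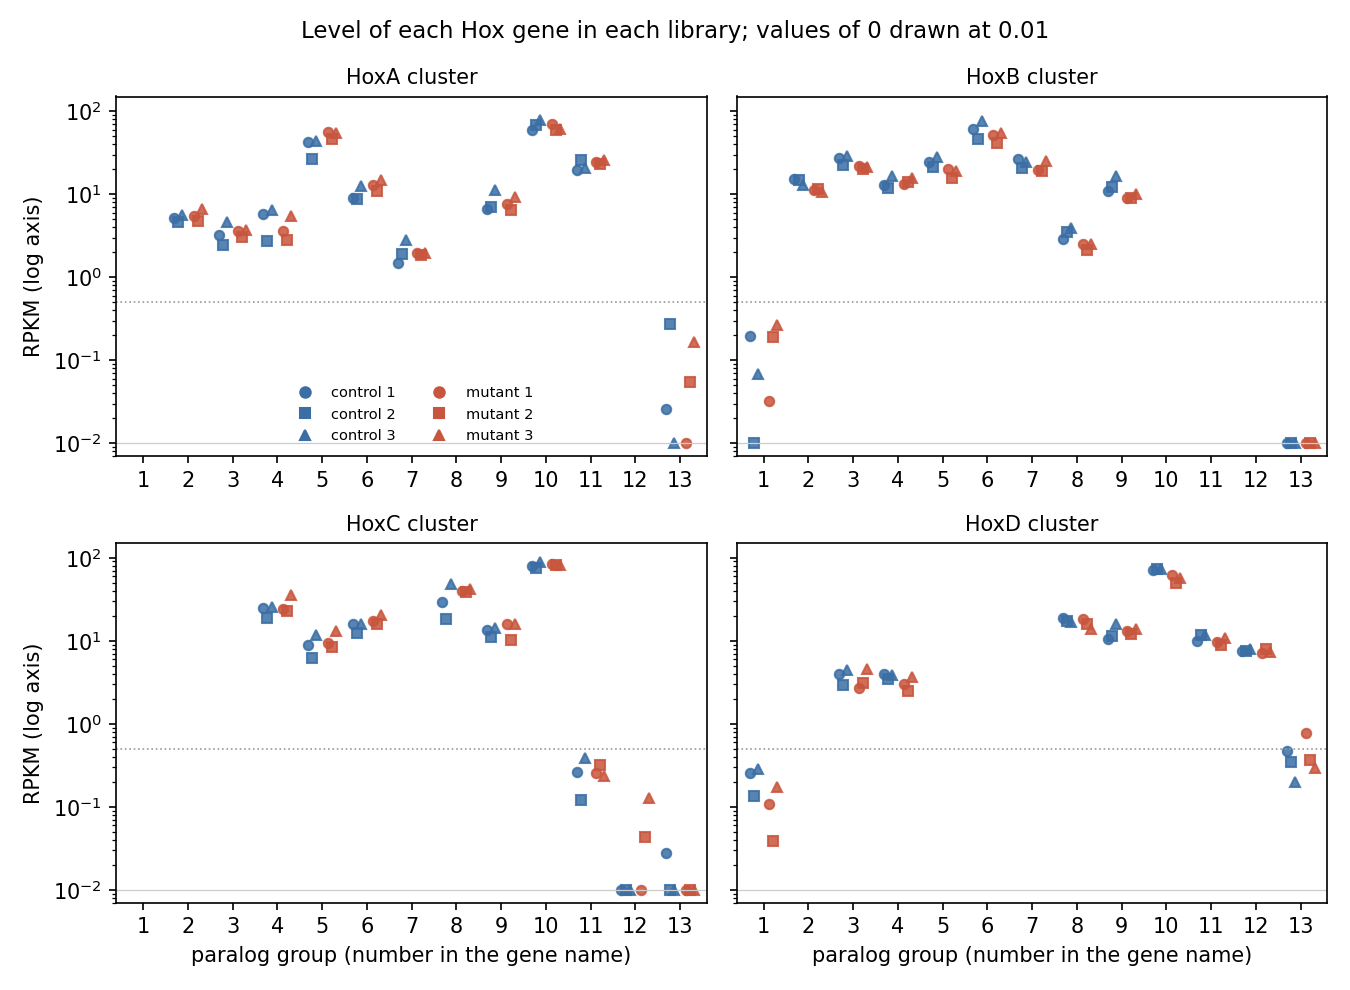
RPKM on a log axis for each of the 38 Hox genes by paralog group, 1 panel per cluster, with 1 point per library (controls blue, mutants red); values of 0 are drawn at 0.01 and the dotted line is 0.5 RPKM. Group 10 genes of HoxA, HoxC and HoxD are the highest points of their clusters, and the points of group 13 lie near or under the dotted line.

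The summed level peaked at paralog group 10. Its 3 genes held 33.4% of the RPKM summed over the 38 genes, group 6 held 13%, group 5 12%, group 8 8.79%, group 4 7.41%, group 9 7.20% and group 11 5.33%. The clusters were closer to each other, with 28.8% in HoxC, 26.7% in HoxA, 25.8% in HoxB and 18.8% in HoxD. In controls the order of single genes began with Hoxc10 at 80.9 ± 6.68 RPKM, Hoxd10 at 72.5 ± 0.628, Hoxa10 at 68.7 ± 10.3 and Hoxb6 at 61.1 ± 15.6 (SD, n = 3). Hoxc10 lay above Hoxd10 in every control, but Hoxd10, Hoxa10 and Hoxb6 overlapped, and in 31 of 37 neighbouring pairs of that order the control ranges overlapped. The step down after Hoxb6, to Hoxa5 at 37.7 ± 9.42 (SD, n = 3), was one of the 6 steps without overlap.

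**Figure D2:**
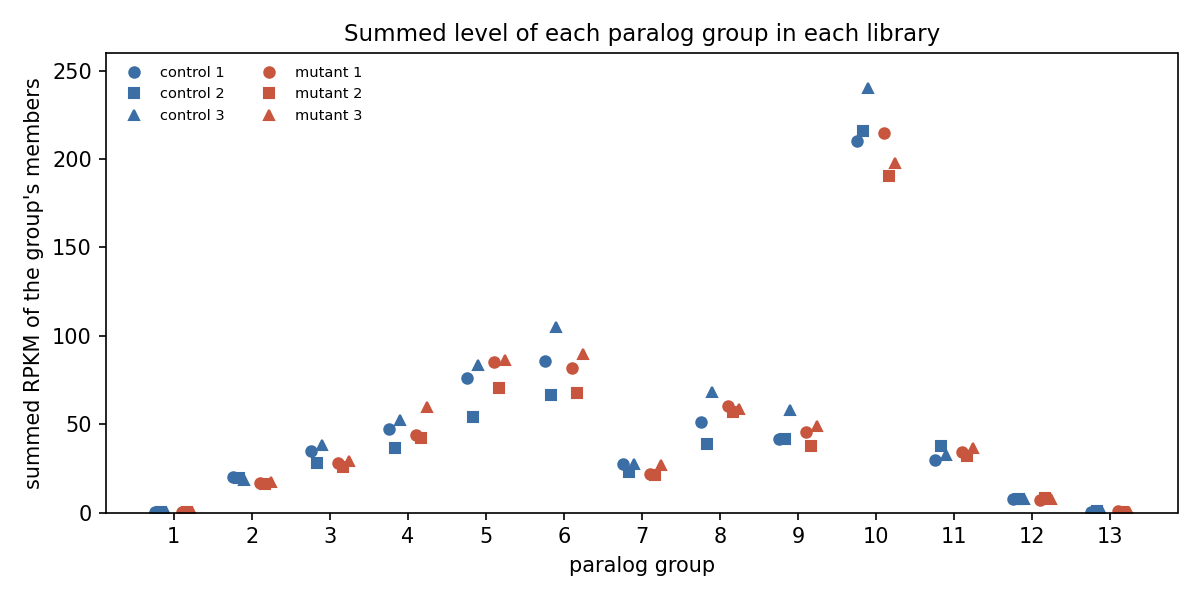
Summed RPKM of the members of each paralog group, 1 point per library, controls blue and mutants red. Group 10 lies between 190.2 and 240.3 in all 6 libraries, above every other group, and groups 1 and 13 lie near 0.

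Genotypes were compared with limma on log2(RPKM + 0.5) over the 13463 genes that reached that minimum. Of all tested genes 3.13% passed an adjusted p of 0.05, 1.32% higher and 1.81% lower in mutants. Of the 30 tested Hox genes 0 passed, and 0 passed with voom on recovered reads, where 5.10% of all genes did. At an unadjusted p of 0.05 limma gave 7 Hox genes, 6 lower and 1 higher in mutants, beside 13.7% lower and 5.94% higher among all tested genes. The 3 mutant libraries lay below the 3 controls in 6 Hox genes and above them in 1 (7 of 30), where all genes gave 18% and 7.06% (25.1% in either direction). The Hox genes had a median log2 fold change of -0.06 and a range from -0.45 to 0.50, beside a median of -0.12 for all tested genes. Mitochondrial ribosomal RNA took 27.0% to 30.4% of reads in controls and 32.3% to 38.3% in mutants, and its part in these differences was not tested. In 1 table simulated for this comparison with 13439 genes tested, the fit called 6% of genes changed 1.5-fold and 77.1% of those changed 2-fold. Few genes were changed in that table and its libraries had no shared effects, so these shares need not hold for the Hox genes. A Hox gene that did not pass may still differ.

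The clusters differed in their medians. The median log2 fold change was -0.35 over 8 tested HoxB genes, -0.14 over 7 HoxD genes, 0.04 over 9 HoxA genes and 0.22 over 6 HoxC genes. In HoxB 7 of 8 lay below 0 and in HoxD 6 of 7, where 68.1% of all genes did. In HoxC 6 of 6 lay above 0 and in HoxA 5 of 9, where 31.9% of all genes did. With median-of-ratios scaling 6 of 6 and 8 of 9 did, beside 47.8% of all genes. Single libraries moved these figures. Without control replicate 2 the HoxC median was 0.04, with 3 of 6 above 0, and the HoxA median -0.08, with 4 of 9. Without mutant replicate 3 the HoxC median was 0.04, with 5 of 6 above 0, the HoxA median -0.00 and the HoxD median -0.25. Without control replicate 3 or mutant replicate 2 the HoxA median was 0.16 or 0.12, and without either replicate 1 it was 0.03 (control) or 0.01 (mutant). The HoxC median was 0.33 without control replicate 3 and 0.33 without mutant replicate 2. The HoxB median stayed between -0.42 and -0.22 over all alternatives run. With median-of-ratios scaling, which moved the median of all genes from -0.12 to -0.01, the medians were -0.22 in HoxB, -0.04 in HoxD, 0.15 in HoxA and 0.34 in HoxC, and with quantile normalization they were -0.22, -0.05, 0.11 and 0.35.

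**Figure D3:**
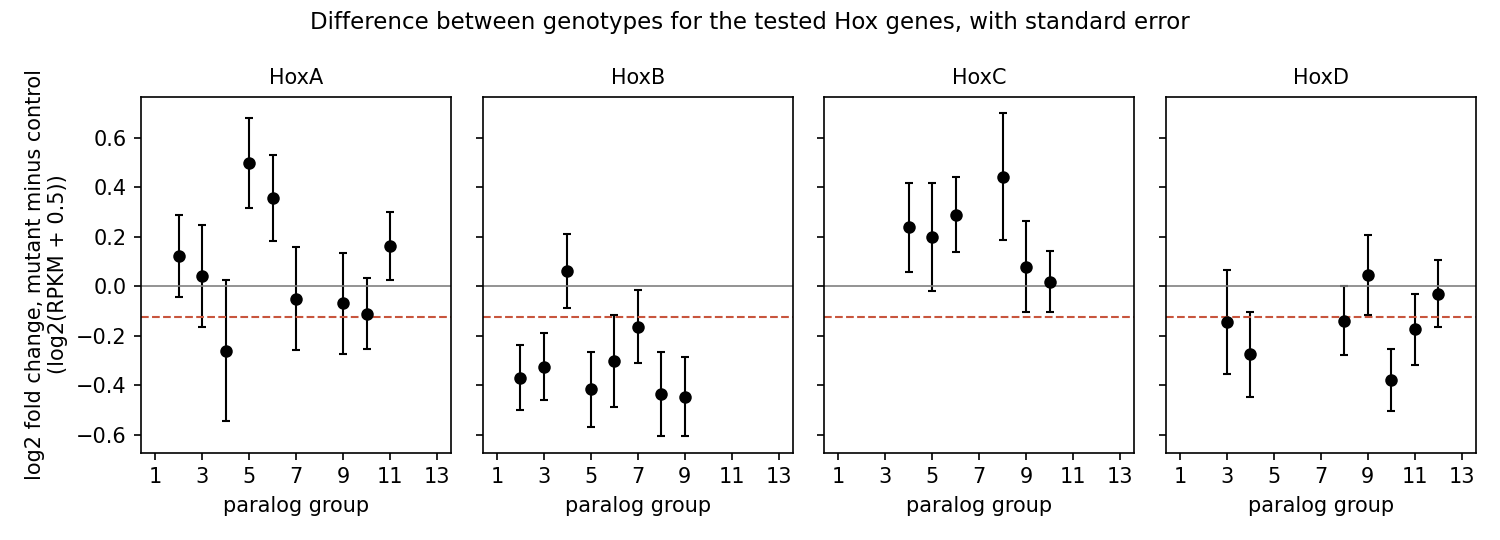
Log2 fold change (mutant minus control, log2(RPKM + 0.5)) with its standard error for the 30 tested Hox genes by paralog group, 1 panel per cluster; the dashed red line is the median of all tested genes at -0.12. All HoxB genes but Hoxb4 lie below that line and all 6 HoxC genes lie above 0, of which 3 do so without control replicate 2.

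A ratio of 2 clusters within a library does not depend on a scaling factor per library. The summed RPKM of HoxC over that of HoxB was 0.949, 0.930 and 0.978 in control replicates 1, 2 and 3 and 1.28, 1.34 and 1.32 in mutant replicates 1, 2 and 3. No mutant library came near the controls, whose mean was 0.953 ± 0.0239 against 1.31 ± 0.0294 in mutants (SD, n = 3 each), 1.38 times as high. HoxA over HoxB was 0.840, 0.971 and 0.895 in controls and 1.25, 1.20 and 1.16 in mutants. HoxA over HoxD (1.16 to 1.39 and 1.58 to 1.64) and HoxC over HoxD (1.11 to 1.52 and 1.65 to 1.87) were also apart. HoxD over HoxB (0.642 to 0.838 and 0.705 to 0.777) and HoxC over HoxA (0.958 to 1.13 and 1.03 to 1.14) overlapped. Thus 4 of 6 cluster pairs did not overlap between genotypes, and these pairs share their sums. Of all tested genes taken singly 25.1% did not overlap, and the share for ratios of other gene sets was not worked out. The ratios were set up after the gene values had been seen, they show unequal change only, and no test was made of them.

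**Figure D4:**
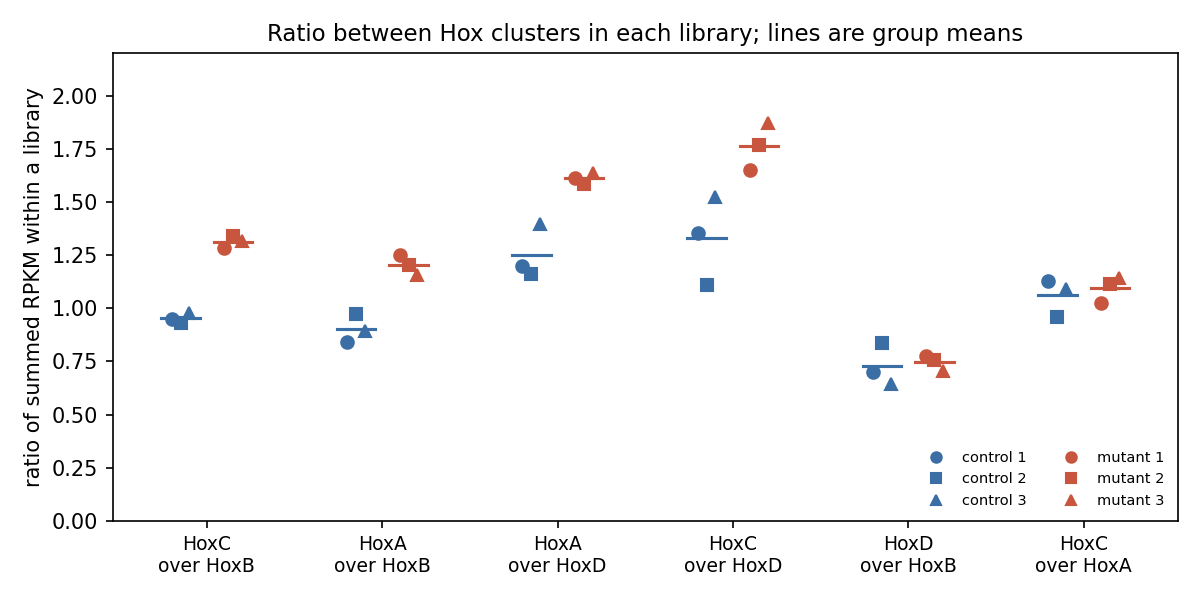
Ratio of the summed RPKM of 2 clusters within each library for the 6 pairs of clusters, controls blue, mutants red, with lines at the group means. The mutant points lie above all controls for HoxC over HoxB, HoxA over HoxB, HoxA over HoxD and HoxC over HoxD.

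The HoxC to HoxB ratio did not rest on 1 gene. With each of the 19 genes of both clusters left out in turn, the mutant libraries stayed above the controls in 19 of 19 cases. Without Hoxc8 the control range was 0.749 to 0.811 and the mutant range 1.01 to 1.05, and without Hoxc10, the most abundant HoxC gene, 0.439 to 0.555 and 0.720 to 0.806. Among paralogs, HoxC and HoxB both had a tested gene in 5 groups, and the ratio of their RPKM had a higher mean in mutants in 5 of 5. The left-out sums and the paralog ratios reuse the same genes and libraries as the cluster ratio, so they add no separate support. Hoxc5 over Hoxb5 was 0.364, 0.299 and 0.417 in controls and 0.465, 0.537 and 0.683 in mutants. Hoxc6 over Hoxb6 was 0.259, 0.270 and 0.204 in controls and 0.341, 0.386 and 0.379 in mutants. Hoxc8 over Hoxb8 was 10.1, 5.21 and 12.3 in controls and 15.9, 17.98 and 16.7 in mutants. These 3 groups did not overlap, while Hoxc4 over Hoxb4 (1.56 to 1.89 and 1.66 to 2.26) and Hoxc9 over Hoxb9 (0.874 to 1.22 and 1.11 to 1.76) did. No share for such ratios of other gene pairs was worked out.

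The HoxB cluster spans chromosome 11 from 96194316 to 96368254 (mm10). Its middle genes pattern the hindbrain, neck and thorax, and Hoxb7 is best known in kidney for a promoter used to mark the ureteric bud. Hoxb9 (Entrez Gene 15417) had 11.04, 12.1 and 16.4 RPKM in controls (replicates 1, 2 and 3) and 9.08, 9.10 and 10.1 in mutants, a log2 difference of -0.45 with standard error 0.16 (limma adjusted p 0.165). Hoxb8, given here because its groups did not overlap, had 2.90, 3.50 and 3.90 in controls and 2.51, 2.15 and 2.53 in mutants (-0.43, limma adjusted p 0.196), with 158 to 334 reads per library. Hoxb5, known from gut and lung mesenchyme, had 24.4, 21.0 and 28.2 in controls and 19.9, 15.7 and 19.0 in mutants (log2 fold change -0.42, limma adjusted p 0.168). In all 3 genes every mutant library lay below every control. The same held for Hoxb3, with 27.5, 22.6 and 29.0 RPKM in controls and 21.8, 19.9 and 21.0 in mutants (-0.32, limma adjusted p 0.220). Hoxb2, a hindbrain gene, had 15.1, 15 and 13.02 in controls and 11.1, 11.5 and 10.5 in mutants (-0.37, limma adjusted p 0.163). These 5 of 8 HoxB genes with lower mutant libraries stand beside 18% of all genes.

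The other tested HoxB genes overlapped between genotypes. Hoxb6, the most abundant, had 61.0, 45.6 and 76.9 RPKM in controls and 51.3, 40.8 and 54.3 in mutants. Hoxb7 had 26.3, 20.8 and 24.4 in controls and 19.7, 19.2 and 24.9 in mutants. Hoxb4, a gene also used in blood stem cells, had 12.97, 11.8 and 16.4 in controls and 13.3, 13.8 and 15.5 in mutants, and it was the 1 tested HoxB gene with a fold change above 0 (0.06, standard error 0.15). Without control replicate 2 its value was -0.04. Exons of Hoxb3os on the other strand cover 52.9% of the exon bases of Hoxb3 and 27.3% of those of Hoxb2. As the strand setting of the counts is not given in the sources used here, reads of these genes and of Hoxb3os cannot be told apart.

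The HoxC cluster spans chromosome 15 from 102921131 to 103036856. Hoxc8, which patterns the thorax and the motor neurons of the brachial cord, was spread widely among controls, with 29.4, 18.2 and 47.8 RPKM, while mutants had 40.0, 38.7 and 42.4. Control replicate 3 therefore lay above every mutant and the groups overlapped (log2 fold change 0.44, standard error 0.26, limma adjusted p 0.356). This value moved with the control left out, and was 0.79 without replicate 3 (limma adjusted p 0.0111) and 0.10 without replicate 2 (limma adjusted p 0.808). Hoxc6, another thoracic gene, had 15.8, 12.3 and 15.7 in controls and 17.5, 15.8 and 20.6 in mutants (0.29, limma adjusted p 0.309). Hoxc4 had 24.5, 18.7 and 25.6 in controls and 24.1, 23.0 and 35.1 in mutants. Hoxc5 had 8.87, 6.27 and 11.8 in controls and 9.27, 8.42 and 12.98 in mutants. In all 4 genes control replicate 2 was the lowest library.

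Further towards the tail lie Hoxc9, Hoxc10 and Hoxc11, whose values overlapped between genotypes. Hoxc9 had 13.5, 11.2 and 14.3 RPKM in controls and 16.0, 10.1 and 15.9 in mutants (0.08, standard error 0.18). Hoxc10 had 79.8, 74.9 and 88.1 in controls and 83.5, 81.1 and 81.0 in mutants (0.02, standard error 0.12). Without control replicate 2, Hoxc5, Hoxc9 and Hoxc10 took values of -0.02, -0.02 and -0.03. Hoxc11 had 0.260, 0.121 and 0.389 RPKM in controls and 0.253, 0.315 and 0.238 in mutants, from 4 to 10 reads per library.

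The HoxA cluster spans chromosome 6 from 52162417 to 52260880 for the genes described. The neighbours Hoxa5 and Hoxa6 had the highest fold changes of the cluster. Hoxa5, needed for lung and neck skeleton, had 42.9, 26.8 and 43.3 RPKM in controls and 56.2, 46.5 and 54.4 in mutants, the 1 tested Hox gene whose mutant libraries all lay above the controls (log2 fold change 0.50, standard error 0.18, limma adjusted p 0.171). Without control replicate 3 the value was 0.62 (limma adjusted p 0.0376), in a fit that called 8.18% of all genes, and without control replicate 2 it was 0.27 (limma adjusted p 0.374). Hoxa6 had 8.88, 8.63 and 12.5 in controls and 12.8, 10.9 and 14.98 in mutants (0.36, limma adjusted p 0.280), and the ranges overlapped. Hoxa2, the gene of the second branchial arch, had 5.11, 4.56 and 5.65 in controls and 5.41, 4.80 and 6.70 in mutants (0.12).

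The tail-side HoxA genes did not separate the genotypes. Hoxa10, which patterns the lumbar region and uterus, had 58.8, 68.0 and 79.3 RPKM in controls and 70.2, 59.6 and 60.2 in mutants (-0.11, limma adjusted p 0.675). Hoxa9, a gene of the thoracolumbar spine and of leukaemia, had 6.70, 7.02 and 11.3 in controls and 7.65, 6.38 and 9.36 in mutants (-0.07). With median-of-ratios scaling these 2 values were 0.01 and 0.05. Hoxa3, Hoxa4 and Hoxa7 lay between 1.46 and 6.52 RPKM in the 6 libraries, with log2 fold changes of 0.04, -0.26 and -0.05.

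The HoxD cluster spans chromosome 2 from 74668225 to 74765142. Hoxd10, a gene of the lumbar cord and limb, was steadiest in controls, with 71.8, 72.9 and 72.9 RPKM, and had 61.3, 49.6 and 56.9 in mutants. It had the lowest unadjusted p of the Hox genes (0.0114) and every mutant library lay below the controls (log2 fold change -0.38, standard error 0.13, limma adjusted p 0.142, and 0.0902 to 0.413 over the alternatives run). Hoxd12 had 7.55, 7.46 and 7.87 in controls and 7.02, 8.01 and 7.38 in mutants (-0.03). Hoxd8 had 18.8, 17.2 and 16.6 in controls and 18.1, 16.0 and 13.7 in mutants (-0.14), and Hoxd9 had 10.6, 11.5 and 15.9 in controls and 12.97, 11.98 and 13.8 in mutants (0.04). These 3 genes overlapped. Hoxd3 and Hoxd4 lay between 2.46 and 4.58 RPKM, with log2 fold changes of -0.14 and -0.27, and 53.1% and 39.1% of their exon bases are shared with the annotated gene Gm28230 on the same strand.

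Paralog group 11, the group needed for kidney formation, was unevenly filled. Hoxa11 had 19.6, 25.6 and 20.4 RPKM in controls and 24.5, 23.1 and 25.6 in mutants, a log2 difference of 0.16 with standard error 0.14 (limma adjusted p 0.511). Hoxd11 had 9.83, 11.7 and 11.7 in controls and 9.54, 8.86 and 10.9 in mutants, a log2 difference of -0.17 with standard error 0.14 (limma adjusted p 0.498). In both genes the genotypes overlapped, and the remaining paralog, Hoxc11, stayed under 0.5 RPKM in every library. Summed over the group, controls had 33.2 ± 3.93 RPKM and mutants 34.4 ± 2.27, while for group 10 the sums were 222 ± 15.9 and 201 ± 12.6 (SD, n = 3 each). Of the exon bases of Hoxa11, 35.0% lie under exons of Hoxa11os on the other strand, which had 8.98, 11.6 and 11.2 RPKM in controls and 10.7, 8.55 and 13.7 in mutants.

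Within a genotype, many Hox genes shared the order of the pools. Control replicate 2 was the lowest control in 19 of 30 tested Hox genes and control replicate 3 the highest in 23 of 30, whereas over all tested genes these shares were 29.9% and 30.2%. Among mutants, replicate 2 was the lowest in 23 of 30 and replicate 3 the highest in 20 of 30, and over all genes in 58.4% and 53.7%. In HoxA mutant replicate 2 was the lowest mutant in 9 of 9 genes, and in HoxC control replicate 2 was the lowest control in 6 of 6. The summed RPKM of stromal markers was 114, 170 and 64.4 in control replicates 1, 2 and 3 and 123, 207 and 184 in mutant replicates 1, 2 and 3. It was thus highest in the replicate 2 of either genotype. The lowest sum was in replicate 3 among controls but in replicate 1 among mutants. Of 10 stromal markers 0 passed in limma (median log2 fold change 0.63). The part of the stromal sum in the Hox values was not tested.

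Hox proteins bind DNA with cofactors of the TALE homeodomain class, the Pbx, Meis and Pknox proteins. Of 9 such genes 9 were tested and 0 passed. Meis2 had 93.7, 89.2 and 109 RPKM in controls and 77.2, 75.8 and 89.8 in mutants (log2 fold change -0.26). Pbx2 had 26.5, 30.0 and 27.5 in controls and 19.4, 18.5 and 23.1 in mutants, with every mutant below the controls (-0.46, limma adjusted p 0.0982), and the value for Pknox2 was 0.37 (limma adjusted p 0.274). Of 19 upstream regulators of Hox genes, among them retinoic acid receptors, Cdx genes and chromatin factors, 12 were tested and 0 passed, with a median log2 fold change of -0.25 and 9 of 12 below the median of all tested genes. The retinoic acid receptor genes Rara and Rarb had values of -0.51 and -0.34 (limma adjusted p 0.157 and 0.218), and the Polycomb genes Ezh2 and Suz12 values of -0.08 and 0.02.

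Genes that act beside group 11 in the metanephric mesenchyme were fixed as a list of 10, of which 9 were tested, 1 was lower in mutants and 8 did not pass. Six4, a homeobox gene related to Six2, fell from 10.1, 11.9 and 10.6 RPKM in controls to 6.48, 5.99 and 6.98 in mutants (log2 fold change -0.70, limma adjusted p 0.0186). Its call was lost on leaving out control replicate 1 (0.0603) or mutant replicates 1 or 2 (0.0785 and 0.101), as it was when low values were not filtered (0.0527). Six2, which keeps progenitors undifferentiated, had a value of -0.37 (limma adjusted p 0.249), Eya1 of -0.28 (0.287) and Sall1, a zinc finger gene of the same mesenchyme, of -0.10 (0.671). Itga8, the integrin subunit of the mesenchyme, had 60.1, 58.7 and 73.8 RPKM in controls and 82.2, 79.5 and 80.8 in mutants (0.34, limma adjusted p 0.194, and 0.0403 without control replicate 3).

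Among non-coding transcripts of the clusters, 4 of the 14 listed were matched and tested and 0 passed. Hotair, a long non-coding RNA between Hoxc11 and Hoxc12, had 1.53, 0.561 and 0.672 RPKM in controls and 1.83, 1.64 and 1.66 in mutants (log2 fold change 0.70, limma adjusted p 0.157), and Hoxd3os1 had a value of -0.16 (0.745). The 6 microRNA entries rest on few reads of hairpin length, and mature microRNAs were not measured. Mir615 (chromosome 15, 103014910 to 103015001), inside the span of Hoxc5, had 0, 0 and 3 reads in controls and 5, 5 and 8 in mutants, 6.57 times the rate per read sequenced (95% counting interval 1.92 to 34.8, limma adjusted p 0.0290). It passed in limma, but not with voom (0.0621), no filter (0.161), quantile normalization (0.0511) or robust variance moderation (0.0960), and not without control replicate 1 (0.0709) or mutant replicates 1, 2 or 3 (0.0825, 0.154 and 0.113). Mir196b had 12, 21 and 24 reads in controls and 3, 15 and 3 in mutants, so that mutant replicate 2 lay within the controls (limma adjusted p 0.113, and 0.0106 without mutant replicate 2). Its 85 bases lie within an annotated exon of Hoxa9 on the same strand, so reads of the 2 cannot be told apart. Mir196a-2, in HoxC, had 6, 7 and 4 reads in controls and 7, 6 and 12 in mutants (log2 fold change 0.55, limma adjusted p 0.235). Its RPKM was higher in every mutant than in any control, as in 7.06% of all tested genes. Mutant replicate 2 (2.54 RPKM) had as many reads as control replicate 1 (2.395 RPKM) and fewer than control replicate 2. Mir196a-1, in HoxB, had 0 to 5 reads per library and a log2 fold change of 0.03. Mir10a and Mir10b had 9 to 21 and 8 to 20 reads per library and log2 fold changes of 0.38 and -0.40, and neither passed.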

How the data were processed

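RNA of sorted progenitors was amplified (Ovation RNA-Seq System V2) and sequenced from both ends (100 bases each, 2 lanes), per the labels' protocols. The build was mm10, with FastQC and limma named, per the submitters' processing notes, and the column names carry the word subread, per the file headers. The values the authors deposited are RPKM, 1 per Entrez Gene entry and library. Counting tool, annotation and strand setting: not given in the sources used here.

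RefSeq symbols (GRCm38.p6, the same assembly as mm10) matched 25275 of 27179 entries. The table lists 39 Hox genes, of which 1 is not reported here, nor are some listed companion and marker genes. Because low RPKM values step by whole reads, each library's depth and each gene's length and reads could be recovered, for all 13463 tested genes, and their sums came to 99.7% to 99.8% of the depth. Whether a unit is a read or a pair is not known. The counting interval is an exact 95% binomial interval and covers counting error only. The genotype test used limma (version 3.58.1, R 4.3.3) and log2(RPKM + 0.5), a scale that understates changes of low genes, on genes averaging 0.5 RPKM or more, with a mean-variance trend, two-sided, adjusted over all tested genes by Benjamini-Hochberg at 0.05. The 3 pools per genotype are separate pools of embryos. Seed matches, overlaps and ratios were computed in Python 3.11.15 from GENCODE M21 transcripts, and at most 3.32% of the 31-base words of any Hox gene described (Hoxa6) occurred in another gene. The fit was tested on simulated data.

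The members and lists were chosen with earlier results of these data known. All 38 genes were accounted for. Values per library were given for genes averaging 5 RPKM or more, genes past the threshold and group 11, and for Hoxb8, chosen after its values were seen. From each companion list those past the threshold, the 2 of lowest p and those of at least 50 RPKM were named, as were all microRNA entries of the clusters. Alternatives were the pseudocount, filter, scaling, variance model, sample weights, voom, a replicate block and leaving out each library. Leaving single genes out of the cluster ratio was added after the data were seen.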

Additional observations from a re-analysis of the deposited data

How the results depend on the processing

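Over 17 alternatives to the fit, 486 of 510 values of the 30 tested Hox genes kept their direction and did not pass, 2 passed and 22 changed sign. The count of Hox genes called was 0 in 16 of the alternatives and 2 without control replicate 3 (Hoxa5 and Hoxc8, both higher), so over left-out libraries it ran from 0 to 2. The number of genes called over the whole table was 422, with 143 when low values were not filtered, 686 with voom, and 151 (without mutant replicate 2) to 1101 (without control replicate 3) when 1 library was left out. Of those called, 178 were higher and 244 lower, against 282 and 156 with median-of-ratios scaling and 264 and 163 with quantile normalization. The median over Hox genes stayed between -0.12 and 0.06.

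The signs that changed belonged to small differences, none of which passed. With median-of-ratios scaling Hoxa10 was 0.0149, Hoxa9 0.0491, Hoxd12 0.0895, Hoxa7 0.0481, Ezh2 0.0426 and Sall1 0.0207. With quantile normalization Hoxa10 was 0.0652, Hoxa9 0.0480, Hoxd12 0.0822, Ezh2 0.0926 and Sall1 0.0654. With 1 library left out in turn, log2 fold changes that crossed 0 ran from -0.0691 to 0.2131 for Hoxd9, from -0.0294 to 0.2915 for Hoxc9, from -0.0347 to 0.0818 for Hoxc10, from -0.0228 to 0.4064 for Hoxc5, from -0.0351 to 0.1922 for Hoxb4, from -0.1489 to 0.2499 for Hoxa3, from -0.2278 to 0.1533 for Hoxa7, from -0.2003 to 0.1578 for Hoxa9, from -0.0767 to 0.0119 for Hoxd12, from -0.4339 to 0.1243 for Hoxd3os1, from -0.1462 to 0.0284 for Ezh2 and from -0.1019 to 0.0973 for Suz12. The cause was not tested.

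The HoxC to HoxB ratio in mutants over that in controls, 1.38, was 1.33 without Hoxc8, 1.499 without Hoxc10, 1.32 without Hoxc8 and Hoxb6, and 1.36 to 1.40 without any 1 library. Whether replicate numbers pair the samples is not settled. Deviations of same-numbered libraries correlated at 0.0526, 0.157 and 0.153, and each library correlated best with its own number. Libraries of unlike number correlated at -0.146 to -0.00627. The main fit took no account of pairing. With a replicate block 393 genes were called and 0 Hox genes, with a median of -0.06.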

Other observations

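The genes that flank the Hox clusters were fixed as a list of 14, of which 10 were tested, 1 was higher, 1 lower and 8 did not pass in limma. Skap1 and Skap2, paralogous adaptor genes of leukocyte signalling, are the 2 that passed, and they lie beside different clusters. Skap1 (chromosome 11, 96464570 to 96759622), beyond Hoxb1, fell from 3.01, 3.40 and 2.92 RPKM in controls to 1.34, 1.25 and 1.84 in mutants (log2 fold change -0.88, limma adjusted p 0.0230). Skap2 (chromosome 6, 51859165 to 52012549), on the low-number side of HoxA, rose from 5.42, 7.16 and 4.15 to 10.2, 9.07 and 10.96 (0.83, limma adjusted p 0.0342). In both genes the groups did not overlap. The call for Skap1 was lost on leaving out control replicate 1 (0.0802) or mutant replicates 1 or 2 (0.103 and 0.124), and with no filter (0.114). The call for Skap2 was lost on leaving out control replicate 1 (0.0975) or any mutant (0.126, 0.121 and 0.109), with no filter (0.134) and with no trend (0.0570). Macrophage and leukocyte markers summed to 4.16 to 7.49 RPKM in controls and 8.95 to 10.3 in mutants, and their part was not tested. Cbx5, a heterochromatin protein gene beside HoxC, had 88.3, 101 and 95.7 RPKM in controls and 73.2, 63.9 and 71.4 in mutants (-0.45, limma adjusted p 0.0874, and 0.0316 with voom).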
